A study of Mus musculus with 12 samples.

Results

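The killer cell lectin-like receptor genes Klra8, Klrb1c, Klrc1, Klrc2, Klrd1, Klre1, Klrg1, Klrk1 and Klri2 were described in sorted cells of mice with and without a glioma. They are 9 of the 19938 genes measured, and each was taken by its symbol as the gene of a probe set that the platform annotation gives to that symbol alone. Each of the 9 genes had exactly 1 such probe set. RNA of 12 flow-sorted populations was hybridised to Affymetrix Mouse Gene 1.0 ST arrays, with 1 array for each population. The cells came from 7-week C57BL/6J mice, and the mice labelled Tumor carried a glioma grown for 2 weeks from implanted GL261 cells, a mouse glioma line. The labels give the same growth text, implantation included, for the arrays labelled Normal and do not say whether those mice had a sham implantation.

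From the brain of mice with glioma came the Gr1+ and Gr1- arrays and the arrays labelled microglia (MG) and macrophage (MP). From their blood came arrays labelled Macrophage High, Macrophage Low, Gr1+ and Gr1-. Normal mice gave brain MG, brain MP, blood Macrophage High and blood Macrophage Low. In the study MG were sorted as CD11b+/CD45low and MP as CD11b+/CD45high cells. The labels do not say which surface protein was high or low on the blood macrophages, nor how many mice were pooled.

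Values are log2 signals as the authors normalized them. A value was called background when it fell under the 95th percentile that 1027 olfactory receptor genes reached on the same array, since these genes are used mainly by olfactory neurons. This level ran from 8.93 to 10.09, and between 11.2% and 39.1% of genes exceeded it. With 1 array per population no difference could be tested, and no replicate error exists. As a yardstick, the SD over olfactory receptor genes of the difference between 2 arrays is given beside the main comparisons. It is not a replicate error. The probes of one gene cannot be set against those of another, so levels are compared between arrays within a gene.

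Several libraries stood apart from their labels. The library labelled normal blood Macrophage High had the highest background, at 10.09, the fewest genes above it, and a Pearson's r of 0.467 to 0.732 with the other arrays over all genes. On it 0 of 7 monocyte markers and 0 of 11 neutrophil markers were above background. Only 11.2% of all genes were, so these counts are near that share. The library labelled tumor blood Macrophage High had 7 monocyte and 9 neutrophil markers above background, against 3 and 0 on the library labelled tumor blood Macrophage Low. Over all genes 34.9% were above background on tumor blood Macrophage High and 31.1% on tumor blood Macrophage Low. The array closest to normal blood Macrophage High over all genes was tumor blood Macrophage Low (r = 0.732), and the array closest to tumor blood Macrophage High was normal blood Macrophage Low (r = 0.915). The library labelled blood Gr1- had 9 of 9 microglia markers above background, against 37.7% of all genes, and an r of 0.962 with tumor brain MP. The library labelled normal brain MP had 11 of 11 neutrophil markers above background, against 36.3% of all genes.

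Killer cell lectin-like receptors are C-type lectin-like membrane proteins found on natural killer (NK) cells and on some T cells. NK cells weigh signals from inhibitory members, which bind MHC class I or related molecules on healthy cells, against signals from activating members, which bind ligands of stressed, infected or transformed cells. Activating members have short cytoplasmic tails and signal through adaptors such as Tyrobp (DAP12) and Hcst (DAP10), and inhibitory members carry tyrosine motifs of their own. Most of the genes lie side by side in the natural killer gene complex on chromosome 6.

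The sequences upstream of these genes are shown because the genes moved together over the arrays, as described further on. A window of 250 bases before the transcription start was taken from RefSeq (build GRCm38.p6). It was found for 6 of the 9 genes, and Klrd1, Klrg1 and Klri2 had no entry. Capitals mark TGTGGT, the motif of the Runx transcription factors, some of which act in NK cells, printed as ACCACA where it lies on the other strand, and Klra8 held none.
Klra8 (chr6:130129899-130130148, minus strand): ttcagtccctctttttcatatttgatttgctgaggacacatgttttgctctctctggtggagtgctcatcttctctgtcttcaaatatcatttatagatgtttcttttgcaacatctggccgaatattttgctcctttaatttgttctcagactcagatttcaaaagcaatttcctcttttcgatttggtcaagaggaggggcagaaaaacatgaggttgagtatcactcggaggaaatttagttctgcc
Klrb1c (chr6:128788642-128788891, minus strand): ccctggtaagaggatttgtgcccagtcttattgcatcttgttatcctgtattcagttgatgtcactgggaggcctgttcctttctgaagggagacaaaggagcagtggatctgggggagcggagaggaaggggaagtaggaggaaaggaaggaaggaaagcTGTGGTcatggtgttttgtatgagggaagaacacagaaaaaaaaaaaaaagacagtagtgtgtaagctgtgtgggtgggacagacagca
Klrc1 (chr6:129678974-129679223, minus strand): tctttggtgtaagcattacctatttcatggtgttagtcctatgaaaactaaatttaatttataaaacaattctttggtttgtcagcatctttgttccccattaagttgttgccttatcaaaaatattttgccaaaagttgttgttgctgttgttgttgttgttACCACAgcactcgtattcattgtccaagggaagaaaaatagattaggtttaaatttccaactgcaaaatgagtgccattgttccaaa
Klrc2 (chr6:129660597-129660846, minus strand): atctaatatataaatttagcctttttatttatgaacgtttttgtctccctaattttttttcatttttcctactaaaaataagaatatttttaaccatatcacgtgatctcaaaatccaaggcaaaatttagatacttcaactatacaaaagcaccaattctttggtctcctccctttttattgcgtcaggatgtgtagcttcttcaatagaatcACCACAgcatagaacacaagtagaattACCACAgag
Klre1 (chr6:129577963-129578212, plus strand): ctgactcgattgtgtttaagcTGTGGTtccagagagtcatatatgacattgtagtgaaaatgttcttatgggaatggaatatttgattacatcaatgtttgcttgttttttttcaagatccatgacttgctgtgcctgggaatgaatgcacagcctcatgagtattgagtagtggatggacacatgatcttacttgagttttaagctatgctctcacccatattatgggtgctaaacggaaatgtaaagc
Klrk1 (chr6:129623865-129624114, minus strand): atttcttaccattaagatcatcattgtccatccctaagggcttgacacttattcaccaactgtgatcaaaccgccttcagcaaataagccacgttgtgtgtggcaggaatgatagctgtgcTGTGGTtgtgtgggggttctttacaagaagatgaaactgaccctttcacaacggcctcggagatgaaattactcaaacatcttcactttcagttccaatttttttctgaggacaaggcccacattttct

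The motif TGTGGT, searched on both strands, stood in 5 of the 6 windows, and 14.2% of 27025 promoter windows of the same length held it. Its first letter as printed lay 89 bases before the start in Klrb1c, 87 in Klrc1, 229 in Klre1 and 129 in Klrk1. For a match printed as ACCACA this letter is the last base of TGTGGT. Klrc2 held it at both 36 and 9 bases. The T-box motif GGTGTGA, the kind of site that Eomes and Tbx21 bind, was in 0 of the 6 windows and in 3.31% of all windows. The Ets motif AGGAAG was in 1 of the 6, that of Klrb1c, and in 29.2% of all windows. It did not overlap the Runx motif there. A match is a run of letters and says nothing of binding, and the motifs were chosen after the sequences were seen.

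All 9 genes had the same order at the top. The highest array was tumor blood Macrophage Low for 9 of 9, the next was normal blood Macrophage High for 9 of 9, and after these came tumor brain Gr1- for 9 of 9. Above background were 9 of the 9 on tumor blood Macrophage Low, where 31.1% of all genes were, 5 on normal blood Macrophage High, with 11.2% of all genes, and 4 on tumor brain Gr1-, with 39.1%. On the 9 other arrays 1 of 81 values exceeded background, that of Klrd1 on normal MP, where 36.3% of all genes did. The 8 arrays with 0 of 9 receptor genes were tumor brain Gr1+ (35.2% of all genes above background), MG (26.3%) and MP (32.0%), tumor blood Macrophage High (34.9%), Gr1+ (32.3%) and Gr1- (37.7%), normal MG (27.1%) and normal blood Macrophage Low (26.3%). Above background on tumor blood Macrophage Low and on none of those 9 arrays were 8 of the 9 genes, against 1.39% of all genes. Those 9 arrays were set apart after the values of the same 9 genes were seen. The contrast with 1.39% was therefore largely fixed by that choice. Fewer cells of a type in a sorted population and less RNA per cell cannot be told apart in such values.

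**Figure D1:**
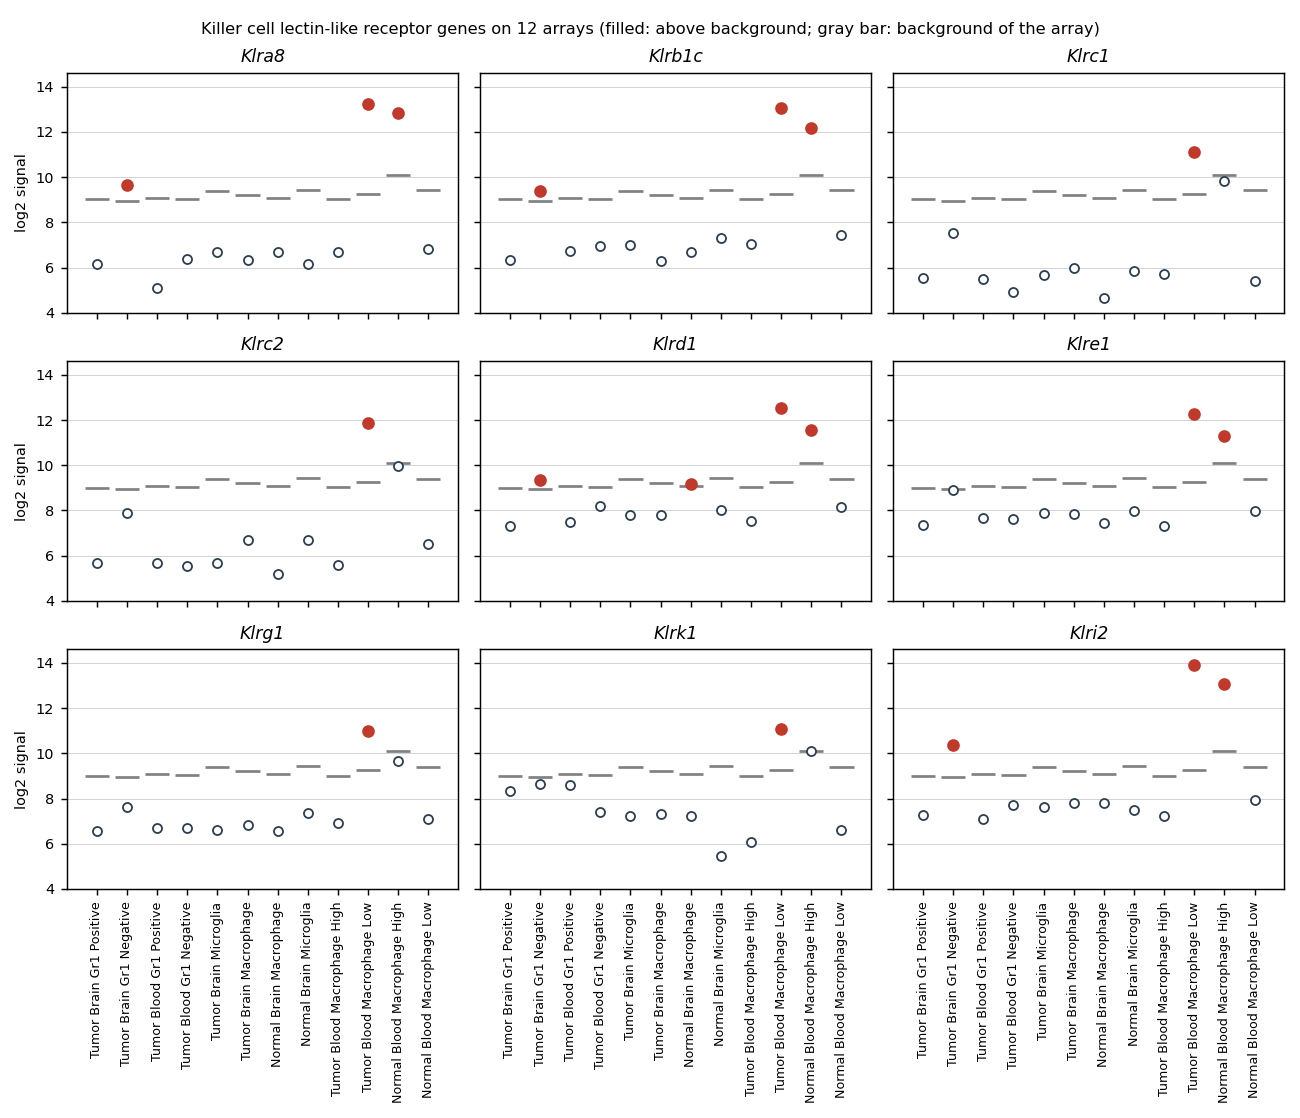
Log2 signal (vertical axis) of each of the 9 receptor genes on each of the 12 arrays (horizontal axis). Filled points are above the array's background, drawn as a gray bar, and open points are below it, and 9 of 9 genes are filled on tumor blood Macrophage Low.

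Klra8 encodes Ly49H, an activating receptor that binds a cytomegalovirus protein and signals through DAP12. Its log2 signal was 6.14 on tumor brain Gr1+ and 9.67 on Gr1- cells. In blood of mice with glioma it was 6.70 on Macrophage High, 13.24 on Macrophage Low, 5.10 on Gr1+ and 6.36 on Gr1- cells. Tumor and normal MG had 6.70 and 6.18, and tumor and normal MP 6.33 and 6.69. In normal blood it was 12.83 on Macrophage High and 6.83 on Macrophage Low. Klra8 thus had the widest range of the 9 genes over the arrays, 8.14 on the log2 scale, with 3 arrays above background and 9 below.

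Klrb1c encodes NK1.1, an activating receptor used to identify NK cells in C57BL/6 mice. It had 6.33 on tumor brain Gr1+ and 9.38 on Gr1- cells. Blood of mice with glioma gave 7.06 on Macrophage High, 13.04 on Macrophage Low, 6.73 on Gr1+ and 6.95 on Gr1- cells. MG had 6.98 in tumor and 7.30 in normal brain, and MP had 6.31 in tumor and 6.70 in normal brain. Normal blood gave 12.18 on Macrophage High and 7.44 on Macrophage Low. The same 3 arrays as for Klra8 were above background.

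Klrd1 encodes CD94, the subunit that joins with NKG2 chains in receptors for the nonclassical MHC molecule Qa-1. Its values were 7.30 on tumor brain Gr1+ and 9.36 on Gr1- cells. In blood of mice with glioma they were 7.51 on Macrophage High, 12.54 on Macrophage Low, 7.48 on Gr1+ and 8.20 on Gr1- cells. Tumor and normal MG had 7.82 and 8.02. Klrd1 was the only gene of the 9 above background outside the 3 arrays named, with 7.81 on tumor MP and 9.16 on normal MP, where background was 9.07. Normal blood gave 11.55 on Macrophage High and 8.13 on Macrophage Low.

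Klrc1 encodes NKG2A, the inhibitory partner of CD94. It had 5.72 on tumor blood Macrophage High and 11.13 on Macrophage Low, its only value above background. Normal blood had 9.81 on Macrophage High, under that array's background of 10.09, and 5.41 on Macrophage Low. Tumor brain Gr1+ cells had 5.52 and Gr1- cells 7.53, and the blood Gr1+ and Gr1- arrays had 5.51 and 4.91. The MG arrays had 5.66 in tumor and 5.84 in normal brain, and the MP arrays 6.00 in tumor and 4.66 in normal brain. Klrc2 encodes NKG2C, an activating partner of CD94, and had 5.57 on tumor blood Macrophage High and 11.85 on Macrophage Low, again its only value above background. It had 9.97 on normal blood Macrophage High and 6.50 on Low, and 5.67 on tumor brain Gr1+ and 7.89 on Gr1- cells. On blood Gr1+ and Gr1- cells it had 5.68 and 5.54, on tumor and normal MG 5.66 and 6.68, and on tumor and normal MP 6.71 and 5.18. So of CD94 and its partners NKG2A and NKG2C only CD94 was above background in normal blood and in tumor brain Gr1- cells. On normal blood Macrophage High, however, Klrc1 at 9.81 and Klrc2 at 9.97 were just under the highest background of all arrays. Levels of different genes cannot be compared, so CD94 without its partners cannot be read from this.

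Klri2 and Klre1 encode chains that pair with each other in mouse NK cells. Klri2 had 7.23 on tumor blood Macrophage High and 13.92 on Macrophage Low. It had 13.08 on normal blood Macrophage High and 7.92 on Low, and 7.28 on tumor brain Gr1+ and 10.37 on Gr1- cells. Its other values, on blood Gr1+ and Gr1- cells, MG and MP, lay between 7.12 and 7.80 and below background. Klre1 had 7.32 on tumor blood Macrophage High and 12.29 on Low, and 11.28 on normal blood Macrophage High and 7.96 on Low. It had 7.36 on tumor brain Gr1+ and 8.91 on Gr1- cells, where background was 8.93, and its other values ran from 7.44 to 7.97. Klri2 was thus above background on 3 arrays and Klre1 on 2.

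Klrg1 encodes an inhibitory receptor for cadherins that appears on mature NK cells and effector T cells. It had 6.92 on tumor blood Macrophage High and 10.97 on Macrophage Low, its only value above background. It had 9.64 on normal blood Macrophage High and 7.09 on Macrophage Low, and 6.56 on tumor brain Gr1+ and 7.62 on Gr1- cells. Its other values ran from 6.57 to 7.34, and it had the narrowest range over the arrays, 4.42.

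Klrk1 encodes NKG2D, an activating receptor for stress ligands such as the Rae-1 and H60 proteins, which NK cells and some T cells carry. It had 6.08 on tumor blood Macrophage High and 11.08 on Macrophage Low, its only value above background. On normal blood Macrophage High it was 10.09, a hair under background, and 6.59 on Low. Tumor brain Gr1+ cells had 8.35 and Gr1- cells 8.66, and blood Gr1+ cells 8.58 and Gr1- cells 7.38. Tumor and normal MG had 7.21 and 5.48, and tumor and normal MP 7.33 and 7.21. On tumor brain Gr1- cells Klrk1 was only 0.08 above the highest of the 9 remaining arrays, blood Gr1+ cells, whereas for Klra8 that gap was 2.84 and for Klri2 2.46.

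Blood macrophages named high and low were compared in mice with glioma and in normal mice, and the 9 genes went opposite ways. In mice with glioma 9 of 9 were at least 2-fold lower on Macrophage High than on Macrophage Low, against 5.17% of all genes, and 0 were higher, against 6.72%, with a median log2 difference of -5.41 and a range of -6.69 to -4.06. The median over all genes was -0.21 and the SD over olfactory receptor genes 0.54. In normal mice 9 of 9 were at least 2-fold higher on Macrophage High than on Low, against 4.37% of all genes, and 0 were lower, against 11.9%, with a median of 3.50 and a range of 2.56 to 6.00. Over all genes the median was 0.39 and the olfactory receptor SD 0.34. Lower in the one and higher in the other were 161 genes, or 0.808% of all, and these held 9 of the 9 receptor genes. With both higher arrays above background the number was 39, or 0.196%, with 5 of the 9. Because the dim array of each pair was below background, the folds are lower bounds set at that background. Against Macrophage Low in mice with glioma, Macrophage High was at least 29.8-fold lower for Klri2, 18.6-fold for Klra8, 16.3-fold for Klrb1c, 11.5-fold for Klrd1 and 9.65-fold for Klre1. For Klrc2 the bound was 7.12-fold, for Klrc1 4.34-fold, for Klrk1 4.19-fold and for Klrg1 3.88-fold. In normal mice Macrophage High was at least 12.7-fold higher than Low for Klri2, 10.7-fold for Klra8, 6.81-fold for Klrb1c, 4.41-fold for Klrd1 and 3.65-fold for Klre1. The other 4 genes were below background on both normal blood arrays. The normal comparison rests on the Macrophage High array with the high background, for which there was no second array.

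**Figure D2:**
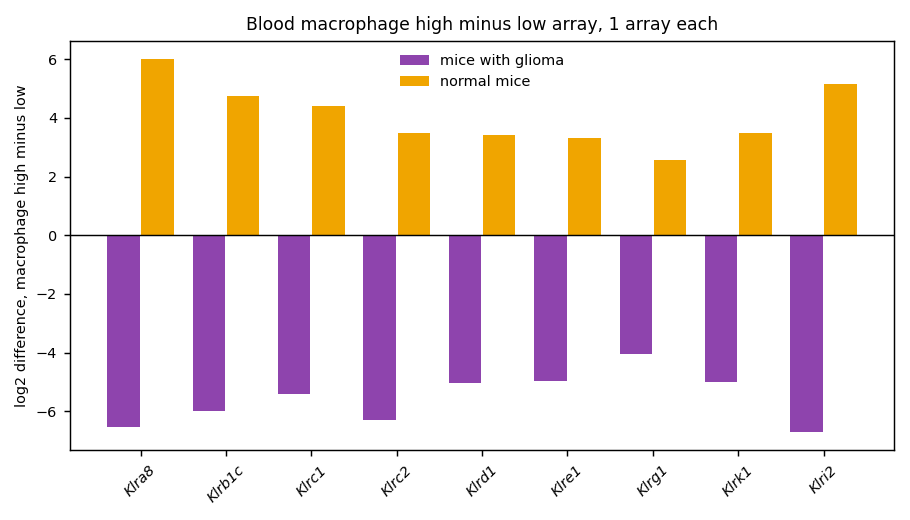
Log2 difference between the blood Macrophage High and the Macrophage Low array (vertical axis, 1 array each) for each receptor gene, with mice with glioma in purple and normal mice in orange. All 9 purple bars are below 0, from -6.69 to -4.06, and all 9 orange bars above it, from 2.56 to 6.00.

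The same 4 arrays were also set across disease, so these comparisons share their arrays with those above. Macrophage High had 9 of 9 genes at least 2-fold lower in mice with glioma than in normal mice, against 32.9% of all genes, and 0 were higher, against 17.7%, with a median of -4.09. Of the 9, Klrc1, Klrc2, Klrg1 and Klrk1 were below background on both arrays. For the other 5, Macrophage High of mice with glioma was at least 16.6-fold lower for Klri2, 14.0-fold for Klra8, 8.94-fold for Klrb1c, 5.79-fold for Klrd1 and 4.79-fold for Klre1. That comparison holds the array with the high background, and the median over all genes was -0.72. Macrophage Low had 9 of 9 at least 2-fold higher in mice with glioma than in normal mice, against 3.29% of all genes, and 0 were lower, against 6.06%, with a median of 5.36 and a range of 3.89 to 6.40. The bounds for Macrophage Low were at least 22.7-fold higher for Klri2, 14.2-fold for Klra8 and 12.4-fold for Klrb1c, and the lowest was 2.95-fold for Klrg1. Marker lists also differed across disease. On Macrophage Low 10 of 11 neutrophil and 6 of 7 monocyte markers were at least 2-fold lower in mice with glioma, with 0 higher. There 7 of 8 B cell markers were higher and 0 lower. On Macrophage High 10 of 11 neutrophil and 7 of 7 monocyte markers were higher, with 0 lower. The part of these marker shifts in the receptor results was not tested. Set directly against each other, a comparison chosen after the values were seen, tumor blood Macrophage Low was above normal blood Macrophage High for 9 of 9 genes. The differences ran from 0.41 to 1.88, and 4 of 9 were at least 2-fold higher, against 13.5% of all genes, and 0 were lower, against 13.2%. Of these 4, Klrc1, Klrc2 and Klrg1 were below background on normal blood Macrophage High, with bounds of 2.06-fold, 3.39-fold and 1.85-fold. Of 16 adaptors and signalling proteins 11 were also higher and 0 lower, with a median of 1.12, against 1.00 for the receptor genes. The part of a general difference between these 2 arrays was not tested.

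Among brain arrays the genes separated the Gr1 sorts. In tumor brain 8 of 9 genes were at least 2-fold lower on Gr1+ than on Gr1- cells, against 5.12% of all genes, and 0 were higher, against 2.88%, with a median of -2.06, a range of -3.53 to -0.31 and an olfactory receptor SD of 0.35. The exception was Klrk1. On the same arrays Gr1+ cells were also lower than Gr1- cells by 2-fold or more for 9 of 9 microglia markers, with a median of -3.81, and 7 of 7 monocyte markers were higher, with a median of 3.38, and the part of these shifts in the receptor result was not tested. Above background on Gr1- cells were Klra8, Klrb1c, Klrd1 and Klri2, and Gr1+ cells were at least 2.57-fold lower for Klri2, 1.58-fold for Klra8, 1.29-fold for Klrb1c and 1.27-fold for Klrd1. Raising every value below background to that level left only Klri2 at least 2-fold apart. Tumor brain Gr1- cells also had 8 of 9 genes at least 2-fold higher than blood Gr1- cells, against 0.547% of all genes, and 0 were lower, against 2.44%, with a median of 2.35. Only Klri2 stayed at least 2-fold apart with the same floor. The blood Gr1- array is the one whose microglia markers go against its label.

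Tumor brain Gr1- cells were well below tumor blood Macrophage Low, a comparison also chosen after the values were seen. All 9 genes were at least 2-fold lower, against 4.27% of all genes, and 0 were higher, against 8.05%, with differences of -3.96 to -2.42. For the 4 genes above background on both arrays tumor brain Gr1- cells were 12.7-fold lower for Klrb1c, 11.8-fold for Klra8, 11.6-fold for Klri2 and 9.06-fold for Klrd1. For Klre1 it was at least 10.2-fold and for Klrc2 at least 7.55-fold.

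In MG and MP the genes gave little signal. Tumor against normal MG had 1 of 9 genes 2-fold higher and 1 lower, against 2.44% and 3.61% of all genes, and 0 of 9 above background on either array. Tumor against normal MP had 2 higher and 1 lower, against 1.65% and 3.58%, and normal MP against normal MG had 2 higher and 2 lower, against 4.35% and 3.11%. In both MP comparisons only Klrd1 was above background, on normal MP. Blood Gr1+ against Gr1- cells had 1 higher and 1 lower, against 3.20% and 4.31%, with 0 of 9 above background. Differences between values below background carry little information.

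Other members of the family were measured for 13 of 30 listed genes. Lower on Macrophage High in mice with glioma and higher on it in normal mice were 7 of these, against 0.808% of all genes. Only Klra3, Klra6 and Klrb1b were above background on both higher arrays. Of the others, named after their values were seen, Klra5 was below background on all 12 arrays. Klrc3, Klrb1f and Klrb1a were below it on both normal blood arrays. Klra3, which encodes the inhibitory Ly49C, had 8.28 on Macrophage High and 13.08 on Macrophage Low in mice with glioma, and 12.25 and 8.64 in normal mice. Klrb1b, an inhibitory relative of NK1.1, had 7.85 and 11.84 in mice with glioma and 10.56 and 8.18 in normal mice, and it was above background on 6 arrays. Klra6 had 7.05 and 11.62 on these arrays in mice with glioma and 10.62 and 7.15 in normal mice. The annotation gives 4 further probe sets to several family symbols at once, so none can be named for 1 gene. All 4 were above background on tumor blood Macrophage Low and normal blood Macrophage High and on none of the other 10 arrays. Ly49 genes are alike in sequence, as are Klrc1 and Klrc2, and how far a probe set reads a relative's RNA was not tested.

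Klra2, which encodes Ly49B, the Ly49 receptor known from myeloid cells, was the only one of these 13 genes with the opposite pattern. It had 11.69 on Macrophage High and 6.08 on Macrophage Low in mice with glioma, and 6.73 on Macrophage High and 10.86 on Low in normal mice. In tumor brain it had 11.38 on Gr1+ and 7.94 on Gr1- cells, and in blood 11.48 on Gr1+ and 9.76 on Gr1- cells. It had 10.08 on tumor MG, 6.93 on normal MG, 10.51 on tumor MP and 10.27 on normal MP. Klra2 was thus above background on 8 arrays, none of them among the 3 where the 9 receptor genes were highest. Its upstream window is shown for the contrast with Klra8.
Klra2 (chr6:131247363-131247612, minus strand): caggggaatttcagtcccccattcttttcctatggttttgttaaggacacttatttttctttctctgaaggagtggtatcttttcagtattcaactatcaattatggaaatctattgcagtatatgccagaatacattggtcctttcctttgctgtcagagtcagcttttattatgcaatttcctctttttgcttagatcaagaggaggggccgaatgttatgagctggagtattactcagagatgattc

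Klra8 and Klra2, a pair of Ly49 genes with opposite patterns, had the same base at 181 of 263 columns of an alignment of their windows, or 68.8%. The windows of the other 5 genes matched that of Klra2 at 44.1% to 50.2%.

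**Figure D3:**
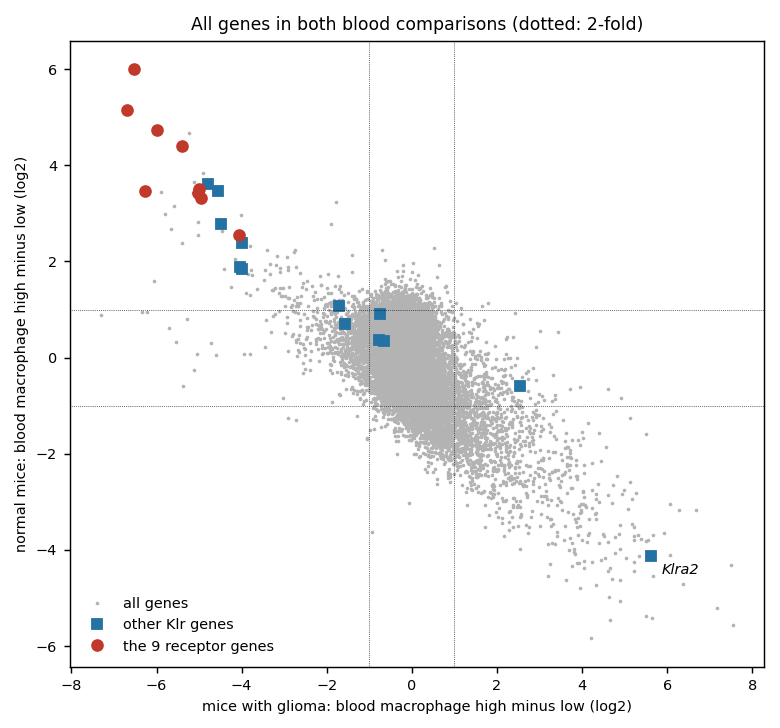
Log2 difference of blood Macrophage High minus Low in mice with glioma (horizontal axis) and in normal mice (vertical axis) for all genes, 1 array per population, with dotted lines at 2-fold. The 9 receptor genes (red) lie in the upper left corner with several other family genes (blue squares), and Klra2 lies in the lower right.

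Of the 9 receptor genes, 8 lie in 1 stretch of chromosome 6, and none of the measured genes of other families between them passed 2-fold in both blood comparisons the way the 9 did. In RefSeq GRCm38.p6 there are 34 protein-coding genes from Klrb1c to Klra8, and Klrg1 lies outside the stretch on the same chromosome. Of 16 measured receptor family genes in it, 13 had the pattern of the 9, but both counts include the 8 receptor genes that define it. Of the 15 measured other genes, 0 had it, against 0.808% of all genes, so a count of 0 is near the background. The opposite pattern was seen in 4 of the 15, against 4.91% of all genes. The following were chosen after their values were seen. Of the 4, Olr1 was below background on all 12 arrays and Clec1b above it on only 1. Cd69, an early activation marker of lymphocytes, was just under the 2-fold threshold in the direction of the receptor genes, with 8.42 on Macrophage High and 9.39 on Low in mice with glioma, and 9.08 on Macrophage High and 8.11 on Low in normal mice. Clec7a, the myeloid receptor for beta-glucan, had 12.53 on Macrophage High and 7.03 on Low in mice with glioma, and 6.94 on Macrophage High and 12.31 on Low in normal mice. Clec12a, an inhibitory receptor of myeloid cells, had 11.05 and 7.18 in mice with glioma and 7.49 and 10.91 in normal mice.

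Outside the receptor family, the genes whose profile over the 12 arrays came closest to the mean profile of the 9 were mostly genes of NK cell function, with 9 of the first 10 in the NK cell program list. Likeness was the mean absolute difference of log2 values, each gene centred on its own mean, over 10360 genes outside the family above background on at least 1 array, where the median was 1.47. The 10 closest of these were Nkg7 (0.21), Eomes (0.22), Il2rb (0.28), Ncr1 (0.29), Gzmb (0.35), Prf1 (0.35), Txk (0.41), Tbx21 (0.46), Gm4759 (0.55) and Sh2d2a (0.60). Of the other family genes, Klra3 (0.29), Klra6 (0.36), Klrc3 (0.57) and Klrb1f (0.57) were nearer to the mean profile than the last of these 10, and Klra2 was at 3.01. Klrc3 and Klrb1f are named here after their values were seen. Eomes and Tbx21 are the T-box factors of NK cell maturation, Ncr1 is the receptor NKp46, and Prf1 and Gzmb are proteins of cytotoxic granules. The 9 genes themselves lay at 0.28 for Klre1 to 0.83 for Klrk1 from the same mean, and the most distant pair was Klra8 and Klrk1, at 1.35. Without the normal blood Macrophage High array 9 of the 10 genes were the same.

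The NK cell program and the markers of other lymphocytes were set beside the receptor genes. Of 21 measured NK program genes, 18 were above background on tumor blood Macrophage Low, against 31.1% of all genes. On normal blood Macrophage High 10 were, against 11.2%, and on tumor brain Gr1- cells 6, against 39.1%. On each other array 0 to 2 were, against 26.3% to 37.7%. The count on tumor brain Gr1- cells was thus under the share over all genes, and the 4 of 9 receptor genes there were near it. In mice with glioma 15 of 21 were at least 2-fold lower on Macrophage High than on Low, against 5.17% of all genes. None was higher, and the median was -4.17. In normal mice 15 were higher on Macrophage High than on Low, against 4.37% of all genes, and 1 lower, with a median of 2.05. In tumor brain 12 of 21 were lower on Gr1+ than on Gr1- cells, against 5.12% of all genes, and 0 higher. Ncr1 had 6.49 on Macrophage High and 12.51 on Low in mice with glioma, and 11.12 on Macrophage High and 6.45 on Low in normal mice. Gzmb had 7.61 and 12.51 in mice with glioma and 11.35 and 7.50 in normal mice, and 7.48 on tumor brain Gr1+ against 10.65 on Gr1- cells.

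Not every gene of cytotoxic cells followed on every array. Ccl5, a chemokine made by NK and T cells and also by activated myeloid cells, was above background on 9 arrays. It had 11.42 on tumor brain Gr1+ and 11.18 on Gr1- cells. On the blood macrophage arrays Ccl5 did follow the receptor genes. There it had 8.23 on Macrophage High and 13.34 on Low in mice with glioma, and 12.49 and 8.84 in normal mice. Il18rap, a chain of the interleukin-18 receptor, had 10.63 on tumor blood Macrophage High and 11.47 on Low. Ccl5 and Il18rap differed from the receptor genes in having signal on arrays where the receptors were below background. Xcl1 was less than 2-fold apart in both kinds of mice. It had 8.72 on Macrophage High and 9.28 on Low in mice with glioma, and 9.85 and 9.01 in normal mice. The following were named after their values were seen. Sh2d1b1 had 8.69 and 8.76 in mice with glioma, and in normal mice 6.46 and 9.48, opposite to the receptor genes. Cd160 and Ifng were below background on all 12 arrays.

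T cell markers did not move with the receptor genes on the tumor blood macrophage arrays. Of 12, between 2 and 5 were above background on every array, where 11.2% to 39.1% of all genes were. There were 3 on tumor blood Macrophage High and 4 on tumor blood Macrophage Low. Between those arrays 0 were 2-fold apart, while over all genes 6.72% were higher and 5.17% lower on Macrophage High. In normal blood 1 T cell marker was 2-fold higher on Macrophage High than on Low, against 4.37% of all genes, and 0 lower, against 11.9%. In tumor brain 1 of the 12, Cd3g, was 2-fold lower on Gr1+ than on Gr1- cells, at 7.11 on Gr1+ and 8.84 on Gr1- cells, both below background. Cd3e, a chain of the T cell receptor complex, had 9.38 on tumor blood Macrophage High and 9.91 on Low. It was above background on 11 arrays, with 9.88 on tumor MG, and Cd4 and Bcl11b were above it on all 12. The list thus had little range over the arrays, and its flatness cannot show whether T cells were present. Cd3d, which like Cd3g was named after its values were seen, was below background on all 12 arrays. B cell markers did move on these arrays. Of 8, 7 were above background on tumor blood Macrophage High and 8 on tumor blood Macrophage Low, against 34.9% and 31.1% of all genes. At least 2-fold lower on Macrophage High were 8 of 8, against 5.17% of all genes, with a median of -1.80. In normal blood 6 were above background on Macrophage High and 7 on Low, against 11.2% and 26.3% of all genes, and only 1 was 2-fold apart. On tumor brain Gr1- cells 1 of 8 was above background, against 39.1% of all genes. The part of these B cell differences in the receptor results was not tested.

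**Figure D4:**
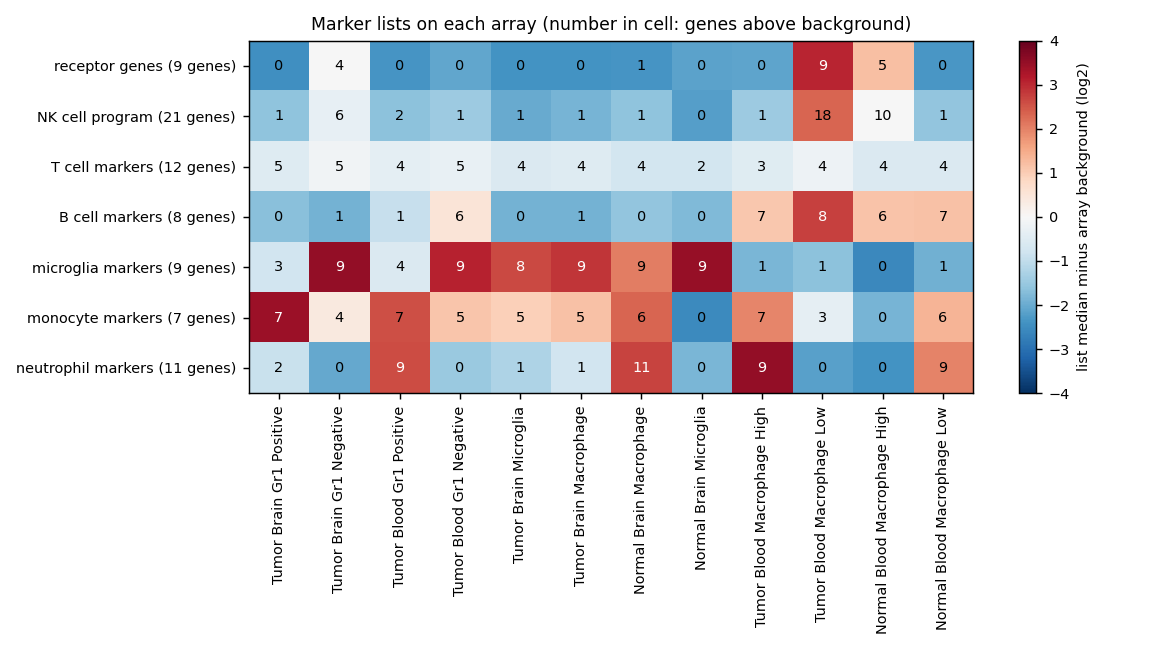
Gene lists (rows) on the 12 arrays (columns), colored by the median log2 value of the list minus the array's background, with the number of genes above background in each cell. The receptor genes and the NK cell program have their highest counts on tumor blood Macrophage Low (9 and 18), then on normal blood Macrophage High (5 and 10) and tumor brain Gr1- cells (4 and 6). Over all genes 31.1%, 11.2% and 39.1% were above background on these arrays.

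Myeloid markers ran the other way on the blood macrophage arrays. Of 7 monocyte markers, 6 were at least 2-fold higher on Macrophage High than on Low in mice with glioma, with a median of 3.81, and 6 were lower in normal mice, with a median of -1.84. Of 11 neutrophil markers, 10 were higher on Macrophage High in mice with glioma and 9 were lower on it in normal mice. S100a8, a calcium-binding protein of neutrophils, had 13.78 on Macrophage High and 8.28 on Low in mice with glioma, and 8.98 on Macrophage High and 12.78 on Low in normal mice. The monocyte marker Ccr2 had 10.96 and 9.69 in mice with glioma and 8.93 and 10.77 in normal mice. On tumor brain Gr1- cells, by contrast, the receptor genes stood beside 9 of 9 microglia markers above background.

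Adaptors through which the activating receptors signal were not limited to the arrays where the receptor genes were high. Tyrobp and Fcer1g, adaptors that myeloid cells also use, were above background on all 12 arrays. Tyrobp had 13.38 on Macrophage High and 11.67 on Low in mice with glioma, and 10.84 on Macrophage High and 12.63 on Low in normal mice, so it was lower on the arrays where the receptors were high. Of 16 measured adaptors and signalling proteins, 3 were at least 2-fold higher and 3 lower on Macrophage High than on Low in mice with glioma, with a median of 0.37. In normal mice 1 was higher on Macrophage High than on Low and 10 lower, with a median of -1.53. Over all genes 6.72% were higher and 5.17% lower on Macrophage High in mice with glioma, and 4.37% and 11.9% in normal mice. Cd247 and Hcst are named after their values were seen. Cd247, the zeta chain of NK and T cell receptors, had 8.22 on tumor blood Macrophage High and 10.20 on Macrophage Low, its only value above background. Hcst, the partner of NKG2D, had 9.44 on tumor blood Macrophage High and 9.13 on Low, and only the value on Macrophage High exceeded background.

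Of the ligands 8 of 19 listed genes were measured. Clec2d, a ligand of the NKR-P1 receptors, was above background on all 12 arrays, from 9.96 on normal MG to 12.07 on blood Gr1+ cells. H60b, a ligand of NKG2D, was above background on 8 arrays, with 10.71 on Macrophage High and 10.07 on Low in mice with glioma. On tumor and normal MG it had 8.91 and 8.13, both below background. Cdh1, the E-cadherin bound by Klrg1, was above background only in tumor brain, at 10.24 on Gr1+ and 8.997 on Gr1- cells. In tumor brain Gr1+ against Gr1- cells 1 of the 8 ligands was 2-fold higher, against 2.88% of all genes, and 0 lower, against 5.12%.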

How the data were processed

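RNA of 12 sorted populations was amplified in 2 cycles and hybridised to Mouse Gene 1.0 ST arrays, and the authors made the deposited log2 values in Affymetrix's Expression Console, for which the submitters' notes name RMA. The genome build and annotation release behind them are not given in the sources used here. The table holds 28944 probe sets, of which 21789 carry 1 gene symbol and were used, 1621 several and 5534 none. A gene was represented by its brightest probe set over 12 arrays, which gave 19938 genes.

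The values were used as deposited, without rescaling. For each comparison 2 arrays were subtracted and the genes past 2-fold counted, for 10 planned comparisons and 2 added after the values were seen. A gene below background has only a bound, so a fold against it was taken from the dim array's background. The 9 genes were given, and up to 6 genes of each other list, by mean over the arrays, and the 10 genes of closest profile were named. Genes and lists were chosen with earlier results of these data known. Subtraction of 2 arrays with the 2-fold threshold was tried in separate code on simulated arrays with added shifts. The choice of probe sets, the background and the bounds were not tested in this way. The arrays were also centred on their medians or normalized by quantiles or cyclic loess, and other settings were the mean of probe sets, a floor at background, thresholds of 1.5-fold and 4-fold and the 90th and 99th percentiles for background. Quantile normalization without the normal blood Macrophage High array was added after the values were seen. The software was R 4.3.3, limma 3.58.1, Python 3.11.15, pandas 2.3.3, numpy 2.4.6 and matplotlib 3.10.9. Each population has 1 array, and the number of arrays limits the precision.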

Additional observations from a re-analysis of the deposited data

Results flagged for a closer look

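The difference between the Macrophage High and the Macrophage Low array of blood had opposite signs in mice with glioma and in normal mice for all 9 receptor genes. With 1 array per population this was not tested. The log2 difference in mice with glioma minus that in normal mice was -12.53 for Klra8, -11.85 for Klri2, -10.72 for Klrb1c, -9.81 for Klrc1 and -9.75 for Klrc2. It was -8.50 for Klrk1, -8.45 for Klrd1, -8.28 for Klre1 and -6.61 for Klrg1. All 9 genes were above background on tumor blood Macrophage Low and 5 on normal blood Macrophage High.

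Klrc2 differed in opposite directions between mice with glioma and normal mice in MG and in MP, by -1.02 and 1.53, a difference of -2.55. All 4 values were below background, and the difference was not tested.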

How the results depend on the processing

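No paired analysis was possible because each population has 1 array. Of 73 recomputed counts of genes at least 2-fold apart, 57 were within 1.5 times the value in the report, and of 36 counts above background 33 were. The mean of probe sets could not change the 2-fold counts, since each gene had 1 probe set, and gave 10 of the 57. For tumor against normal Macrophage High the floor could not lower the count. The 2 backgrounds, 9.02 and 10.09, are themselves more than 2-fold apart. With values below background raised to it, 5 genes were 2-fold apart in normal blood Macrophage High against Low, 1 in tumor brain Gr1+ against Gr1- cells, 1 in tumor brain against blood Gr1- cells and 0 in tumor against normal MG, tumor against normal MP, normal MP against MG and blood Gr1+ against Gr1- cells. Tumor against normal MG had 1 gene 2-fold apart under each of the 3 rescalings. At 4-fold the last 4 of these comparisons had 0 genes and tumor brain against blood Gr1- cells had 5, and at 1.5-fold blood Gr1+ against Gr1- cells had 5. The 99th percentile for background left 2 genes on tumor brain Gr1- cells and 0 on normal MP, and the 90th gave 8 on normal blood Macrophage High.

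Of 398 recomputed differences of single receptor genes, 335 moved by less than 1 SD of the olfactory receptor genes and 61 by more. The 335 include 90 from the mean of probe sets, which could not move with 1 probe set per gene. The sign changed for 2, both of Klrd1 with the floor at background, to 0.068 in tumor against normal MP and to -0.27 in normal MP against MG. For tumor against normal Macrophage High the median over all genes, -0.72 as deposited, was between -0.33 and -0.04 after rescaling, and the median of the receptor genes was then between -3.70 and -3.38. Signal over background was lowest for normal blood Macrophage High, where the fewest genes could be read. The causes were not tested.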

Other observations

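Klre1 and Klrg1 were the pair of receptor genes with the closest profiles over the 12 arrays, with a mean absolute difference of 0.25 on the log2 scale between values centred on each gene's mean. Of the family genes outside the 9, Klrc3, Klrb1f and Klrb1a, named after their values were seen, were above background on tumor blood Macrophage Low alone, and 6 of the 13 measured were below background on all 12 arrays.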
